A study of Mus musculus with 14 samples.

Results

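Smooth muscle and myoepithelial contractile genes are described here across 12 murine mammary tumours. The set held 10 genes chosen by name: the smooth muscle actins Acta2 and Actg2, the thin filament proteins Cnn1, Tagln and Smtn, the myosin chains Myh11 and Myl9, the myosin kinase Mylk, the filament nucleator Lmod1 and the oxytocin receptor Oxtr. A probe belonged to the set when the platform annotation gave it 1 of these symbols. All 10 genes were found, on 12 of 22575 probes and among 16879 named genes. Myl9 and Mylk had 2 probes each, which were averaged, and the other 8 genes had 1 probe each.

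Every tumour came from a Brg1+/- mouse, heterozygous for the gene of the SWI/SNF chromatin remodelling ATPase. The series had 14 two-colour arrays, with tumour RNA in Cy5 set against mouse reference RNA in Cy3 on each, and T172 and T284 had a second array marked biorep, which was averaged with the first. No normal mammary gland and no tumour of another genotype was compared, and the labels give neither the age of the animals, nor which animal each tumour came from, nor what the biorep arrays repeated. Every label also carries the word MIXED, which the labels do not explain. The p-values therefore measure only the spread between these samples, which may be technical.

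The normal mammary duct has an outer layer of myoepithelial cells, basal epithelial cells that carry the contractile machinery of smooth muscle and squeeze milk from the gland when oxytocin reaches them. The same genes are used by the smooth muscle and pericytes of vessel walls, and some of them by activated fibroblasts. Contraction follows when calcium and calmodulin switch on the myosin light chain kinase, the kinase phosphorylates the regulatory light chain, and smooth muscle myosin then pulls on actin filaments. Much of this gene set is known to be switched on by serum response factor and its partners of the myocardin family, which bind a short promoter element called the CArG box.

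The promoters of Acta2 and Myl9 are shown because they were the only member promoters here with a CArG box or a close relative of it. RefSeq windows on GRCm38.p6, from 250 bases before to 50 bases after the gene start, were searched on both strands for the CArG box. Windows were held for 7 of the 10 members (Acta2, Cnn1, Myl9, Mylk, Lmod1, Smtn and Oxtr). A full CArG box, with a core of 6 A or T bases, was found in 1 of these 7 windows, that of Myl9, and in 535 of all 32851 windows (1.63%). When 1 core base was allowed to be C or G, 2 of the 7 windows held a match, those of Acta2 and Myl9 with 2 matches each, against 3280 of all windows (9.98%). Capitals mark the matches in the 2 stretches below, written 5′ to 3′ on the strand of the gene. The Acta2 stretch is chr19:34255374-34255487 on the minus strand, and its matches start 84 and 34 bases upstream of the start used in the RefSeq promoter table, which lies inside the gene's annotated span. The Myl9 stretch is chr2:156775273-156775404 on the plus strand, with the full box 161 bases and the relaxed match 99 bases upstream of the start used there. That start also lies inside the annotated span of Myl9, which begins at 156775408.
Acta2: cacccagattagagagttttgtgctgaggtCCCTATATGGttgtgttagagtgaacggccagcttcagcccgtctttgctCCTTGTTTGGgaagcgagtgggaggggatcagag
Myl9: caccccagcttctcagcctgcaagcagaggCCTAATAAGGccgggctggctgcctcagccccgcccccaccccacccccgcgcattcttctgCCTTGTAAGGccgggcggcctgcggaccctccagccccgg
These matches are descriptions of the letters and not of factor binding.

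Most of the contractile genes were lower in the tumours than in the reference RNA, and several of them differed strongly between tumours. All levels are log2 ratios of tumour over reference, so a negative value lies below the reference RNA, whose tissue makeup is not given in the sources used here. In these bulk samples fewer cells of a type and less RNA per cell cannot be told apart. Acta2, Actg2, Cnn1, Myh11, Myl9 and Mylk were below the reference in all 12 tumours, which is 6 of the 10 members against 14.8% of the 16877 genes tested. For Myl9 and Mylk this holds for the mean of their 2 probes: Myl9 probe 7359 was above the reference in 8 of 12 tumours and Mylk probe 16160 in 11 of 12, so 4 members were below it in every tumour by every probe. The median of the members' mean log2 ratios was -1.40, against 0.01 over all genes tested, and 6 of 10 members had a mean of -1 or lower, against 12.4% of all genes tested. The median SD over tumours was 0.705 for the members and 0.386 over all genes tested, and 2 of 10 members (Cnn1 and Tagln) had an SD of at least 1, against 7.93% of all genes tested.

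Differences between tumours were tested with limma's moderated F-test, which set the 12 tumours against the spread within a tumour as measured by the second arrays of T172 and T284. A gene was called at a Benjamini-Hochberg adjusted p under 0.05 over all genes tested. By this test 6 of the 10 members were called, while 18.3% of all genes tested were. The called members were Cnn1, Tagln, Lmod1, Smtn, Myl9 and Myh11, and those not called were Acta2, Actg2, Mylk and Oxtr. At the stricter adjusted p under 0.01, 3 members were called (Cnn1, Tagln and Lmod1), against 9.35% of all genes tested.

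**Figure D1:**
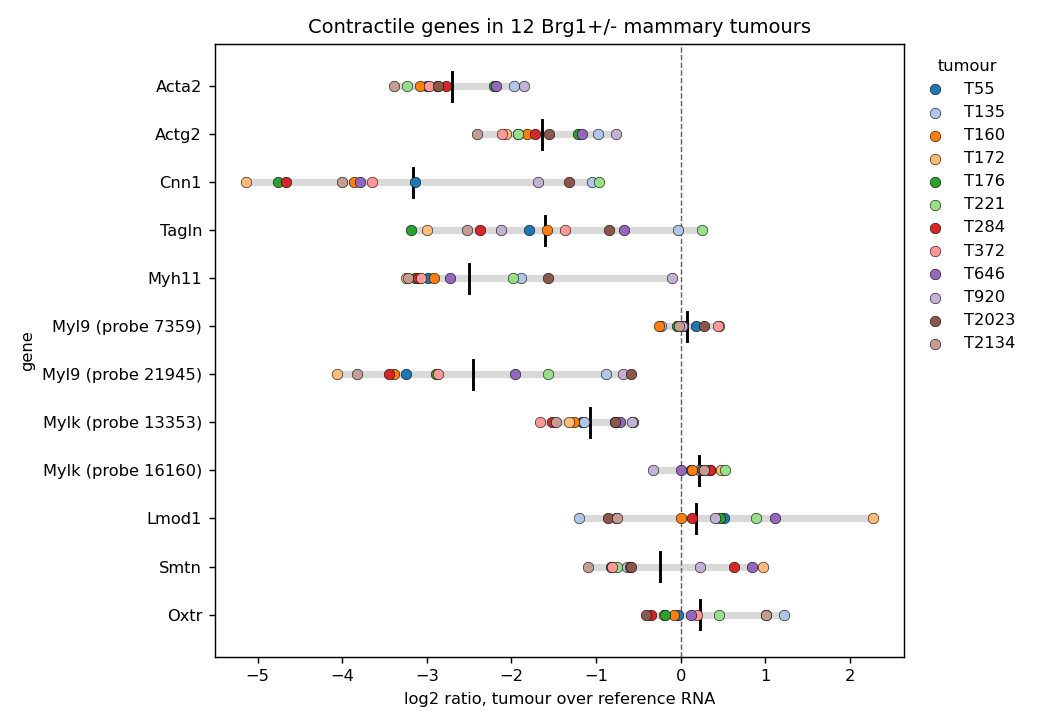
Log2 ratio of tumour over reference (horizontal axis) of the 10 contractile genes (vertical axis, Myl9 and Mylk by probe), with 1 coloured point for each of the 12 tumours, a black bar at their mean, a grey band over their range and a dashed line at the reference level of 0. Cnn1 spans the widest range, from -5.14 in T172 to -0.96 in T221, and Myh11 in T920 (-0.10) lies apart from the other 11 tumours.

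The actins form the thin filaments. Acta2, alpha smooth muscle actin, the usual histological marker of myoepithelium and of myofibroblasts, had a lowest log2 ratio of -3.39 in T2134, a median of -2.88 and a highest of -1.86 in T920. Actg2, the gamma smooth muscle actin of gut and other hollow organs, ran from -2.41 in T2134 through a median of -1.77 to -0.77 in T920. Both actins had their 4 highest values in T920, T135, T646 and T176, and both were below the reference in every tumour. Acta2 averaged -2.70 ± 0.51 and Actg2 -1.64 ± 0.50 (SD, n = 12). Neither was called by limma (adjusted p = 0.334 for Acta2 and 0.212 for Actg2), and the second arrays differed from the first by -0.68 in T172 and 0.73 in T284 for Acta2.

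Of the proteins that decorate thin filaments, Cnn1 and Tagln had the lowest adjusted p-values of all members. Cnn1 encodes calponin, which binds actin and dampens the myosin ATPase, and is a marker of differentiated smooth muscle and myoepithelium. Its log2 ratio was lowest at -5.14 in T172, had a median of -3.72 and was highest at -0.96 in T221. The values fell into 2 runs: T221 (-0.96), T135 (-1.04), T2023 (-1.32) and T920 (-1.69) formed the upper, and the other 8 tumours lay between -5.14 and -3.14. The step of 1.45 between T920 and T55 exceeded 0.990, the least difference that single arrays of 2 tumours need for an unadjusted p of 0.05 given the within-tumour spread, and no other step between neighbours did. Cnn1 averaged -3.17 ± 1.52 (SD, n = 12), and the difference between tumours was called by limma (adjusted p = 0.000528). Its SD was larger than that of 97.6% of all genes tested.

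Tagln encodes transgelin, also called SM22-alpha, an actin cross-linker made early in smooth muscle differentiation. Its log2 ratio was lowest at -3.19 in T176, had a median of -1.69 and was highest at 0.26 in T221, the only tumour above the reference. T221, T135 (-0.03), T646 (-0.67) and T2023 (-0.85) were highest, and T176, T172 (-3.00), T2134 (-2.52) and T284 (-2.37) were lowest. T920, in the upper run for Cnn1, stood at -2.13 for Tagln, rank 8 of 12 from the top. Tagln averaged -1.60 ± 1.11 (SD, n = 12) and was called by limma (adjusted p = 0.00162). No step between neighbouring tumours exceeded the 0.892 that 2 single arrays need, so its order is graded.

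Smtn encodes smoothelin, an actin-binding protein typical of contractile smooth muscle. It had no value in T176, and its F-test therefore used 11 tumours. The log2 ratio was lowest at -1.09 in T2134, had a median of -0.60 and was highest at 0.97 in T172. T172, T646 (0.85), T284 (0.62) and T920 (0.22) were above the reference, and the other 7 measured tumours were below it. Smtn averaged -0.24 ± 0.75 (SD, n = 11) and was called by limma (adjusted p = 0.0203).

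Myosin is the motor that pulls on these filaments. Myh11 encodes the smooth muscle myosin heavy chain, the most specific marker of mature smooth muscle among the members. Its log2 ratio was lowest at -3.25 in T172, had a median of -2.95 and was highest at -0.10 in T920. T920 stood apart by a step of 1.47, above the 1.31 that 2 single arrays need, and was followed by T2023 (-1.57), T135 (-1.89) and T221 (-1.98), while the other 8 tumours lay at or below -2.73. Myh11 averaged -2.50 ± 0.95 (SD, n = 12) and was called by limma (adjusted p = 0.0380), but not without T920 (adjusted p = 0.269). Both second arrays were lower than the first, by -0.85 in T172 and -0.98 in T284.

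Myl9 encodes the regulatory light chain that the kinase phosphorylates. Its averaged log2 ratio was lowest at -2.03 in T172, had a median of -1.34 and was highest at -0.16 in T2023. T2023, T920 (-0.33), T135 and T221 (-0.56 each) were highest, the same 4 tumours as for Cnn1 and Myh11. Myl9 averaged -1.19 ± 0.66 (SD, n = 12) and was called by limma (adjusted p = 0.0325), but fell just short without T2023 (adjusted p = 0.0547).

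This average hid 2 probes that behaved differently. Probe 21945 averaged -2.45 ± 1.26 (SD, n = 12), from -4.07 in T172 to -0.59 in T2023, and was called when each probe was tested as a row of its own in limma (adjusted p = 0.00851). Probe 7359 averaged 0.07 ± 0.23 (SD, n = 12), from -0.25 in T160 to 0.45 in T221, and was not called (adjusted p = 0.937). Over the 12 tumours the probes correlated at r = 0.154 (permutation p = 0.628), with rho = 0.343 (permutation p = 0.277) and r = 0.138 without T221 and T372, the tumours farthest from the median. The SD of probe 21945, 1.26, stands beside 1.52 for the single Cnn1 probe. The files do not give what part of the transcript each probe reads.

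Mylk encodes myosin light chain kinase, which starts contraction. Its averaged log2 ratio ran from -0.69 in T372 through a median of -0.46 to -0.11 in T176, and averaged -0.43 ± 0.19 (SD, n = 12). It was not called by limma (adjusted p = 0.958), and 5.21% of all genes tested had a smaller SD. Its 2 probes also disagreed in level, with -1.08 ± 0.39 for probe 13353 and 0.22 ± 0.23 for probe 16160 (SD, n = 12), so that its position relative to the reference depends on the probe. They correlated at r = -0.347 (permutation p = 0.278), with rho = -0.294 (permutation p = 0.354) and r = -0.162 without T176 and T920. Neither Mylk probe was called on its own in limma (adjusted p = 0.546 for 13353 and 0.893 for 16160).

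When each probe of the array was tested separately in limma, 11.8% of 22573 probes were called. Among the members, Cnn1, Tagln, Lmod1 and Smtn were called on their single probes and Myl9 on probe 21945, making 5 members, while Myh11 missed the threshold (adjusted p = 0.0903).

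**Figure D2:**
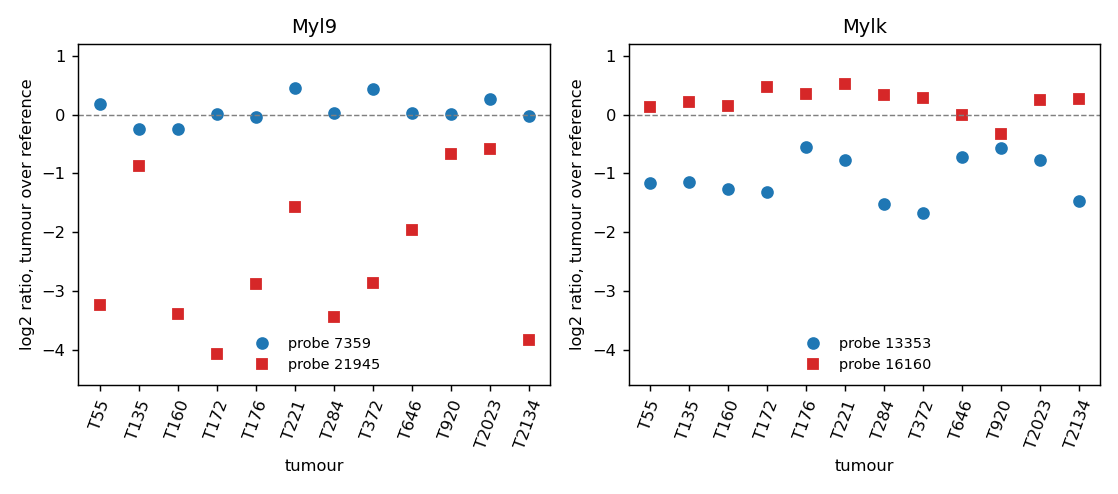
Log2 ratio of tumour over reference (vertical axis) for the 2 probes of Myl9 and the 2 probes of Mylk in each of the 12 tumours (horizontal axis). Myl9 probe 21945 ranges from -4.07 to -0.59 while probe 7359 stays between -0.25 and 0.45, and the Mylk probes lie on opposite sides of the reference in most tumours.

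Lmod1 encodes leiomodin, which nucleates actin filaments in smooth muscle. It averaged 0.19 ± 0.99 (SD, n = 12). The log2 ratio was lowest at -1.20 in T135, had a median of 0.27 and was highest at 2.27 in T172. T172, the tumour lowest for Cnn1, Myh11 and Myl9, lay 1.15 above the next, T646 (1.12), more than the least difference of 1.01 for 2 single arrays. Of the 4 tumours highest for Cnn1, T135 and T2023 (-0.86) were the lowest for Lmod1, while T221 (0.89) and T920 (0.40) lay above its mean. Lmod1 was called by limma (adjusted p = 0.00371), and its 2 T172 arrays read 2.40 and 2.14.

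Oxtr encodes the receptor through which oxytocin triggers myoepithelial contraction. Its log2 ratio was lowest at -0.41 in T2023, had a median of 0.04 and was highest at 1.22 in T135. T135, T920 (1.01) and T2134 (1.01) were highest, and 6 of 12 tumours lay below the reference. Oxtr averaged 0.23 ± 0.57 (SD, n = 12) and was not called by limma (adjusted p = 0.203). Its 2 T172 arrays differed by -0.99, and without the first of them it was called (adjusted p = 0.0364).

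Each tumour was then set against the mean of the other 11 with limma, to ask whether any single tumour carried the contractile genes at an unusual level. None of 119 member tests was called at an adjusted p under 0.05, while 0.394% of the 202287 tests over all genes were. At an unadjusted p under 0.05 there were 4 of 119, or 3.36%, against 5.65% over all genes, all 4 higher in the lone tumour. Myh11 in T920 stood at -0.10, against a mean of -2.71 in the other 11, a difference of 2.61 ± 0.59 (SE, limma adjusted p = 0.105). Lmod1 in T172 was 2.27 ± 0.74 above the other 11 (SE, limma adjusted p = 0.963). Tagln in T221 was 2.03 ± 0.93 above the other 11 (SE, limma adjusted p = 0.630), and Oxtr in T135 was 1.08 ± 0.49 above (SE, limma adjusted p = 0.917).

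Counting only the side on which a member lay, T920 had 8 of 10 members above the mean of the other 11, and T135, T221 and T646 had 7 each. T2023 had 6 of 10, T176 4 of 9, T172 3 and T55 2, while T160, T2134, T284 and T372 had 1 each. T2134 was the lowest tumour for Acta2, Actg2 and Smtn, and T172 for Cnn1, Myh11 and Myl9. T172 was also the highest tumour for Lmod1 and Smtn, so a tumour low for most of the set could be high for other members.

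Some of the members varied together over the 12 tumours. Correlations were computed for all 45 pairs, with two-sided permutation tests of 100000 resamples adjusted over the 45 pairs. The median r was 0.287, 33 pairs were positive, and 5 pairs passed an adjusted p of 0.05. The members share arrays, so the pairs are not independent of each other. How often pairs taken from all genes pass was not computed, so whether these counts are particular to the set was not tested.

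Acta2 and Actg2 were the closest pair (r = 0.952, adjusted permutation p = 0.00135, rho = 0.881 with adjusted permutation p = 0.0112), and r was 0.903 without T135 and T920, the tumours farthest from the median. This pair was held by 2 genes that the F-test did not call. Muscle and cytoplasmic actins are closely related in sequence. The probe sequences were not used here, so whether a probe also reads another actin was not tested.

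Cnn1, Myh11, Myl9 and Tagln made up the other 4 pairs. Cnn1 followed Myl9 (r = 0.882, adjusted permutation p = 0.00705, rho = 0.809 with adjusted permutation p = 0.0206), and Myl9 followed Myh11 (r = 0.841, adjusted permutation p = 0.00315, rho = 0.886 with adjusted permutation p = 0.0103). Cnn1 also followed Myh11 (r = 0.782, adjusted permutation p = 0.0174, rho = 0.853 with adjusted permutation p = 0.0121) and Tagln (r = 0.781, adjusted permutation p = 0.0329, rho = 0.839 with adjusted permutation p = 0.0121). Without the 2 tumours farthest from the median, these values were 0.875 for Cnn1 with Myl9, 0.891 for Myh11 with Myl9, 0.834 for Cnn1 with Myh11 and 0.584 for Cnn1 with Tagln. Over those 10 tumours the relations of Cnn1 with Myh11 and with Tagln no longer passed the adjusted threshold. Taking 1 probe per gene kept the probe with the largest SD over tumours, which for Myl9 is 21945. With this probe, r was 0.873 with Cnn1 and 0.866 with Myh11. Myl9 probe 7359 gave 0.264 with Cnn1 and 0.060 with Myh11, so the Myl9 pairs depended on the probe.

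Within the 8 tumours of the lower Cnn1 run, r was 0.740 with Tagln, 0.582 with Myh11 and 0.463 with Myl9. These values are a description only, since the split was made on Cnn1 itself and narrows its range. By r, Tagln and Myh11 differed most among these 4 genes (r = 0.370), with T920 highest for Myh11 and below the median for Tagln. By rank they did not: rho was 0.713 for Tagln with Myh11 (adjusted permutation p = 0.0858) and 0.641 for Tagln with Myl9.

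Lmod1 and Smtn were in no pair that passed. They correlated with each other at r = 0.686 (n = 11, adjusted permutation p = 0.110, rho = 0.445), and were negative with Cnn1 at -0.403 for Lmod1 and -0.444 for Smtn, the lowest of the 45 pairs.

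**Figure D3:**
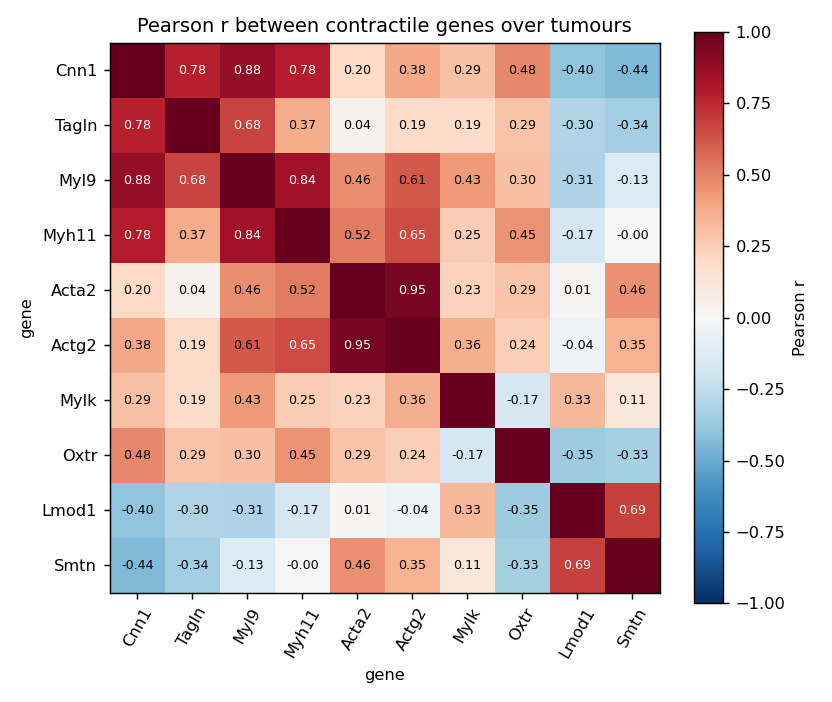
Pearson's r over the tumours for every pair of the 10 contractile genes (colour scale from -1 to 1, genes on both axes). The highest values are Acta2 with Actg2 (0.95), Cnn1 with Myl9 (0.88) and Myh11 with Myl9 (0.84). Cnn1 with Myh11 and with Tagln follow (0.78 each). Tagln with Myh11 is lower (0.37), and Lmod1 and Smtn are negative with Cnn1.

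The genes whose profiles were most like each member over the 12 tumours were taken from all genes with a value in every tumour (in 11 for Smtn), 2 for each member by the highest r. Acta2 was closest to Rab12 and Rnf215 (0.949 each), and Actg2 to Hnrnpa0 (0.931) and Bud23 (0.923). Cnn1 was closest to Catsperz (0.954) and to Ppp1r12a (0.933), the targeting subunit of the myosin phosphatase that reverses the kinase. Tagln was closest to Prune2 (0.941) and Sh3bp2 (0.929), Myh11 to Adprm (0.919) and Fgf8 (0.896), and Myl9 to Mfhas1 (0.908) and Fas (0.890). Mylk was closest to Lhfpl5 (0.902) and Ebf4 (0.891), Lmod1 to Edc4 (0.955) and Fbxl13 (0.941), Smtn to P2rx4 and Foxc2 (0.960 each), and Oxtr to Olfr453 (0.908) and Cdc34 (0.897). Each was picked as the highest of a search over all genes, so no p is attached to it.

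Paralogs of Acta2, Actg2, Cnn1, Tagln and Myh11 were compared with these members in 15 relations, adjusted together. Paralogs of the other members were not compared in this way, and the relations were not among the planned tests. Tagln moved with Tagln2, the transgelin of non-muscle cells (r = 0.860, adjusted permutation p = 0.00450, rho = 0.837 with adjusted permutation p = 0.0181, and 0.778 without T135 and T221). Actg2 moved with the cardiac actin Actc1 (r = 0.854, adjusted permutation p = 0.00450, rho = 0.783 with adjusted permutation p = 0.0192) and with cytoplasmic Actg1 (0.719, adjusted permutation p = 0.0266, rho = 0.755 with adjusted permutation p = 0.0231). Acta2 did so with Actg1 (0.783, adjusted permutation p = 0.0104, rho = 0.790 with adjusted permutation p = 0.0192) and Actc1 (0.770, adjusted permutation p = 0.0184, rho = 0.685 with adjusted permutation p = 0.0532). Without T135 and T920 the actin values were 0.794 for Actg2 with Actc1, 0.442 for Actg2 with Actg1, 0.562 for Acta2 with Actg1 and 0.652 for Acta2 with Actc1. Skeletal Acta1 gave 0.101 with Acta2. None of the 3 non-muscle myosin heavy chains compared with Myh11 (Myh9, Myh10 and Myh14) passed, nor did Cnn3 with Cnn1 (0.644, adjusted permutation p = 0.0685, rho = 0.657).

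Among 23 measured paralogs of the members, 5 were called between tumours (21.7%, against 18.3% of all genes tested). They were Cnn2 (from -1.61 in T172 to 3.06 in T176), a calponin of non-muscle cells, the non-muscle myosin heavy chain Myh14 (from -2.56 in T176 to 1.07 in T135), the vasopressin receptor Avpr1a (from -1.91 in T284 to 0.78 in T646), Tagln3 (from -1.62 in T920 to 0.89 in T372) and Actc1 (from -3.63 in T172 to -1.89 in T920). Tagln2 itself was not called by limma (adjusted p = 0.126).

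Of 50 further genes of the contractile pathway, 44 were measured and 6 were called between tumours (13.6%, against 18.3% of all genes tested). Itga8, an integrin chain of smooth muscle and mesenchyme, ran from -2.87 in T176 to 2.78 in T284. The LIM protein Fhl2 ran from -2.43 in T284 to 2.01 in T176, the opposite ends, and Fhl1 from -6.79 in T2134 to -3.36 in T55. Pdlim3, an actinin-binding protein of muscle, ran from -4.85 in T176 to -0.86 in T920, the tumour highest for Myh11. The other called genes were the intermediate filament gene Vim and the actinin gene Actn4. The count was 11 after quantile normalization, when 24.1% of all genes tested were called, and 10 without the second T172 array, when 23.1% were. With the second arrays as a replicate block in limma it was 11, against 24.7% of 16784 genes tested.

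The upstream regulators showed no called difference between tumours. Srf, which encodes serum response factor, averaged -0.00 ± 0.39 (SD, n = 12; limma adjusted p = 0.208). Myocd, its smooth muscle coactivator, averaged -2.02 ± 0.48 (SD, n = 12), from -2.76 in T284 to -1.30 in T135 (limma adjusted p = 0.458). Des, encoding the muscle intermediate filament desmin, was low throughout at -4.17 ± 0.37 (SD, n = 12; limma adjusted p = 0.507).

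Markers of the cell types that can carry contractile genes varied widely between these tumours. Of the epithelial markers that check the labelled tissue, 11 of 13 luminal and 9 of 13 basal ones averaged above the reference, while the luminal markers Krt19 (-0.93) and Foxa1 (-0.88) and the basal marker Krt5 (-1.11) were among those below it. In T176, 10 of 13 luminal markers were below the reference, with Krt18 at -4.25, Krt8 at -3.53 and Epcam at -4.09, against 1 to 6 of 13 in each of the other tumours. T176 also stood apart on the array as a whole, with 644 genes called against the other 11 (3.83%). All 13 measured basal epithelial markers were called by the F-test, with Trp63, Id4, Krt14 and Krt5 the widest, and 10 of 13 luminal markers, 15 of 15 fibroblast and matrix markers, 6 of 12 mural markers, 4 of 13 endothelial and 5 of 15 skeletal muscle markers were called, beside 18.3% of all genes tested. A list score, the mean over the list of each gene's log2 ratio minus its mean over the 12 tumours, ran from -1.33 in T176 to 1.70 in T2023 for basal markers. It ran from -3.33 in T176 to 0.91 in T920 for luminal markers, from -0.30 in T284 to 0.53 in T646 for mural markers, from -0.60 in T2134 to 0.80 in T221 for endothelial markers, from -1.34 in T2134 to 2.11 in T176 for fibroblast and matrix markers, and from -0.52 in T920 to 1.66 in T55 for skeletal muscle markers.

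Each member was set against each of the 6 list scores, giving 60 relations adjusted together, and none passed an adjusted permutation p of 0.05 by r or by rho. At an unadjusted p under 0.05 there were 8 of the 60 by r. The highest was Cnn1 with the basal score (r = 0.832, permutation p = 0.00157, adjusted p = 0.0804, rho = 0.832), at 0.719 without T135 and T2023. Tagln (0.755, adjusted permutation p = 0.117, rho = 0.713) and Myl9 (0.691, adjusted permutation p = 0.204, rho = 0.613) were also positive with the basal score, while Smtn (-0.653, adjusted permutation p = 0.271, rho = -0.518) and Lmod1 (-0.644, adjusted permutation p = 0.232, rho = -0.664) were negative with it. Without T135 and T2023 these 4 values were 0.692 for Tagln, 0.469 for Myl9, -0.732 for Smtn and -0.413 for Lmod1. Over all 12 tumours, Myl9 probe 21945 gave 0.652 with the basal score and probe 7359 gave 0.378. Tagln was not tied to the basal score alone. With the fibroblast and matrix score it gave 0.278 (adjusted permutation p = 0.758, rho = 0.385), and 0.795 without T176 and T646. The basal markers did not all follow the basal score. In T172, with a score of -1.04, 8 of 13 basal markers were below the reference, but Sox10 was at its highest (3.30). Dst was at its lowest (-1.30) in T2023, the tumour with the highest basal score.

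Whether a basal relation passed the adjusted threshold depended on single tumours, and r was higher in the settings where it passed. Cnn1 with the basal score passed without T372 (r = 0.890, adjusted permutation p = 0.00780) and without T920 (r = 0.893, adjusted permutation p = 0.0120). Tagln passed without T646 (r = 0.870, adjusted permutation p = 0.0336). Myh11 gave a lower value with the basal score over all 12 tumours (r = 0.456, adjusted permutation p = 0.722, rho = 0.636).

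The remaining relations at an unadjusted p under 0.05 were those of Mylk. Mylk was positive with the mural score (r = 0.671, adjusted permutation p = 0.204, rho = 0.636) and with the fibroblast score (0.584, adjusted permutation p = 0.349, rho = 0.580), and negative with the luminal score (-0.665, adjusted permutation p = 0.0804, rho = -0.769). The last passed without T920 (r = -0.680, adjusted permutation p = 0.0120). The Mylk probes differed here too, with r of 0.573 for probe 13353 and 0.130 for probe 16160 against the mural score. In the same order they gave 0.451 and 0.194 against the fibroblast score, and -0.458 and -0.319 against the luminal score. The SD of Mylk over tumours (0.187) was also below its within-tumour SD in the F-test (0.289). Without T176 and T646, Mylk gave 0.581 with the mural and 0.326 with the fibroblast score. Acta2, the member most often used to mark pericytes and myofibroblasts, gave 0.384 with the mural score (adjusted permutation p = 0.758, rho = 0.266) and -0.00 without T176 and T646. The part that any of these cell types has in the members' levels was not tested.

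**Figure D4:**
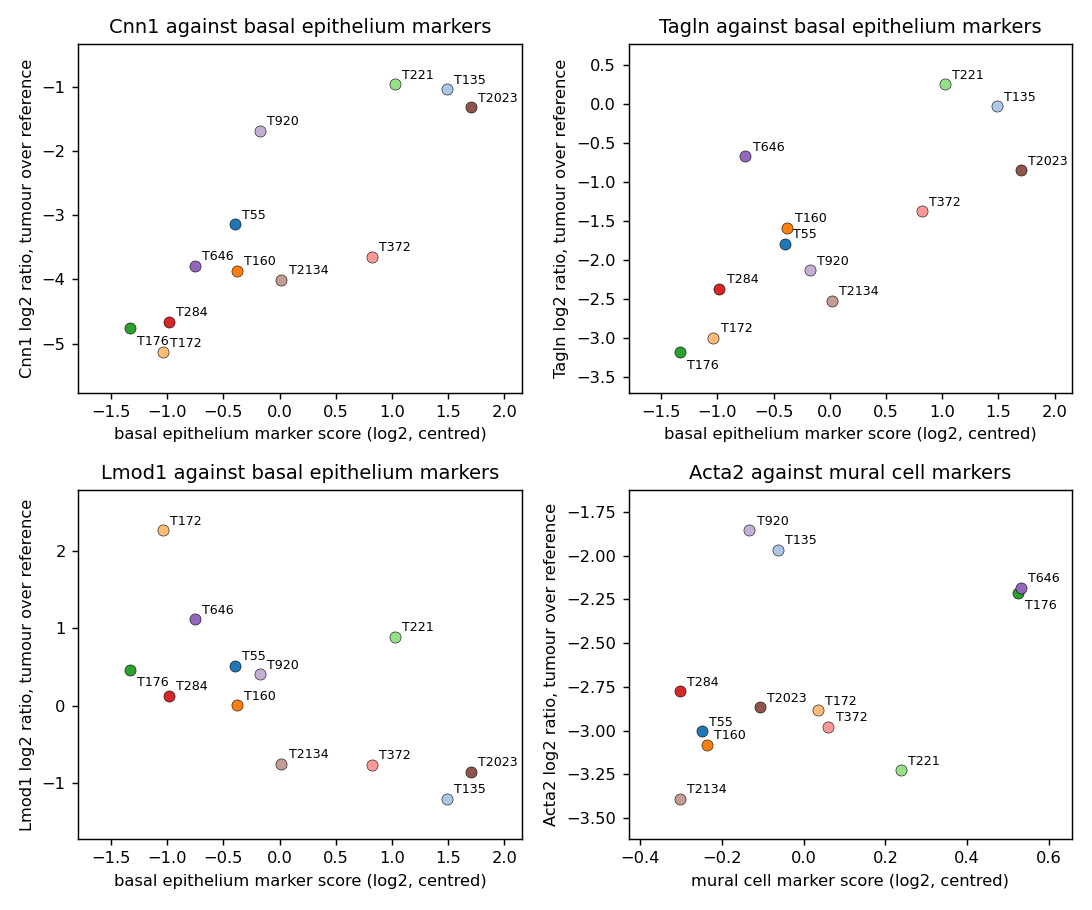
Log2 ratio of tumour over reference of single contractile genes (vertical axes) against the score of a marker list (horizontal axes, mean centred log2 ratio), 1 labelled point for each of the 12 tumours. Cnn1 and Tagln increase with the basal epithelial score (r = 0.832 and 0.755), neither past the adjusted threshold over 60 relations.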

How the data were processed

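The authors' deposited table gives, for each of 14 arrays and 22575 probes, a value read as the log2 ratio of tumour (Cy5) over reference RNA (Cy3), with the dyes per the labels. Base 2 was inferred from the range, -9.19 to 7.42. Array medians lay between 0 and 0.018, so values look centred per array. How the arrays were scanned, background-corrected, normalized and filtered is not given in the sources used here. Probe brightness was not used here, so the number of arrays and the missing values (0.172%) limit precision. Arrays correlated between 0.463 and 0.898, so none ran in the opposite direction. With each gene's mean removed, the 2 arrays correlated at 0.648 in T172 and 0.649 in T284. Over 89 pairs of arrays from different tumours the range was -0.423 to 0.562. The pairs of a T172 with a T284 array were the highest of these, from 0.377 to 0.562. The 2 second arrays gave 0.562 and the 2 first arrays 0.506.

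Of the probes, 18658 had 1 gene symbol, 30 several and 3887 none; symbols were updated through RefSeq (GRCm38.p6; 18445 by Entrez identifier, 24 by accession, 189 kept). Probes of a gene were averaged (1254 genes). Genes needed a value on 12 of 14 arrays. The F-test and the comparison of 1 tumour with the other 11 were fitted in limma 3.58.1 (R 4.3.3) on all genes, with Benjamini-Hochberg adjustment and a prior of 7.22 degrees of freedom, and the steps were tested on simulated data. In the second comparison the lone tumour is assumed to vary like the others. Correlations used Python 3.11.15 and scipy 1.17.1. Named genes are all members, the 2 genes most like each, and up to 4 called genes of each list with the largest SD. Actn4, Vim, Actc1, Tagln2, Srf, Myocd, Des, Sox10, Dst, keratins and paralogs named beyond these were picked after their values were seen. Members and lists were chosen with earlier results of these data known.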

Additional observations from a re-analysis of the deposited data

How the results depend on the processing

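The alternatives were 1 probe per gene, quantile normalization, only genes on all 14 arrays, a robust prior, each array of T172 and T284 left out, each tumour left out, Spearman's rho, and, chosen after seeing the data, each probe as a row of its own and a replicate block for the second arrays. Members called by the F-test numbered 6, when 18.3% of all genes tested were called. Over arrays or tumours left out they numbered 5 to 7, when 14.9% to 23.8% of all genes tested were called. The 7 came without the first T172 array, the setting with 23.8%. At an adjusted p under 0.01 they numbered 3, against 9.35% of all genes tested. Contractile pathway genes called numbered 6, with 11 after quantile normalization, 10 without the second T172 array and 4 to 10 over arrays or tumours left out. The lowest, 4, was without T176, when 14.9% of all genes tested were called. The cause was not tested. Correlated member pairs numbered 5, with 3 without the 2 tumours farthest from the median and 4 to 7 over arrays or tumours left out. Cnn1 with Tagln lost its call when each of 9 tumours was left out in turn. Member relations with marker scores numbered 0, with 0 to 2 over arrays or tumours left out. No member was called in 1 tumour against the other 11 under any of 20 alternatives. Actg2 was called by limma after quantile normalization (adjusted p = 0.0469). The F-test's within-tumour spread rests on 2 pairs of arrays, so a shift shared by the second arrays enters it. A replicate block for the second arrays, in limma, left 1 residual degree of freedom. With the prior degrees of freedom of the fit without the block it called 6 members, the same 6, and 11 pathway genes. It called 24.7% of all genes tested. A first version of the block, with its prior estimated in the block fit, called 9 members (Acta2, Actg2 and Oxtr too), 18 pathway genes and 42.4% of all genes tested; it was replaced, after these counts were seen, because it made too many false calls when tested on simulated data, of which the block as used also made more than the fit without it. The labels do not say that biorep marks a shared batch.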
